A study of Saccharomyces cerevisiae with 12 samples.

Results

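The proteasome genes examined here were a list of 33 genes, from the yeast 20S core and the 19S base and lid, with the transcription factor gene RPN4. SEM1 was not in this list and is counted below with the associated factors. They were taken by gene name from a table of RNA levels of 6053 genes, and 31 of the 33 were matched. RPT1, encoding an ATPase of the base, and RPN10, encoding a ubiquitin receptor, were not analysed here. These are the members of the list with 0 CATG sites in the coding sequence (S288C reference, build R64), and a CATG is what the assay reads from. The transcribed sequence after the stop codon was not searched. Whether the lack of a CATG is why they were not matched was not tested.

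RNA levels come from SAGE tags: polyadenylated RNA is copied, cut by NlaIII at CATG, and a short tag next to the CATG closest to the poly(A) tail is sequenced. The study addressed how the yeast 14-3-3 proteins Bmh1 and Bmh2 act on RNA levels when potassium is removed. Strains were bmh2∆ and bmh1∆, both deletion derivatives of the haploid laboratory strain BY4741. Each was grown at 30 °C in potassium-defined medium with 50 mM KCl, washed, and kept for 60 min in medium without KCl (0 mM) or with 50 mM KCl. This gave 4 groups of 3 libraries: bmh2∆ at 0 mM, bmh2∆ at 50 mM, bmh1∆ at 0 mM and bmh1∆ at 50 mM KCl. Libraries of the parent strain were not used here, so nothing below compares a mutant with the wild type. The sources do not say whether each deletion strain was 1 clone, and p-values measure the spread between these libraries, which may be partly technical.

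The proteasome is the protease that degrades most ubiquitin-tagged proteins. The 20S core is a stack of rings in which outer alpha rings gate the entrance and inner beta rings carry the active sites. The 19S particle caps the core: its base holds the Rpt ATPases that unfold substrates, and its lid holds the scaffold and the enzyme that removes ubiquitin. In S. cerevisiae the genes are controlled together by Rpn4, a short-lived activator that binds the proteasome-associated control element (PACE), letters GGTGGCAAA. Rpn4 is itself degraded by the proteasome, which makes a feedback loop.

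Of the 33 genes, 27 (81.8%) had GGTGGCAAA on either strand in the 300 bases upstream of the start codon in R64, as did 73 of 6001 upstream regions of that length (1.22%). The window can be shared with a neighbouring gene, and a match is a match of letters, not a shown binding site. The matches of 8 genes whose RNA levels are followed below are shown 5′ to 3′ on the strand of the gene, with PACE or its reverse complement in capitals.
RPN9, chrIV:1322086-1322114, plus strand: gctttcatccGGTGGCAAAagtaagaaca
RPN12, chrVI:252398-252426, plus strand: ctacacattaTTTGCCACCcattgaaatt
RPN2, chrIX:220801-220829, minus strand: atttattttcGGTGGCAAAactggataca
RPT4, chrXV:813802-813830, minus strand: aatagtggaaTTTGCCACCgaagggaaag
SCL1, chrVII:475337-475365, minus strand: cacacaccaaTTTGCCACCgtaaggatag
PRE8, chrXIII:86841-86869, minus strand: agcttattaaGGTGGCAAAattgtccccg
PRE1, chrV:177683-177711, plus strand: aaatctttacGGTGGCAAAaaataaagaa
PRE4, chrVI:249959-249987, minus strand: tggtttagaaTTTGCCACCttaaatacgt

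In all 27 genes the match lay between 76 bases (RPT6) and 175 bases (PUP3) from the start codon. The genes without it in this window were RPN4, PRE5, PUP1, RPN8, RPN13 and RPN10. RPN4 is known to be activated by Pdr1 and Pdr3, which bind the element TCCGNGGA, and by Yap1, which binds TTANTAA. In the 600 bases upstream of RPN4 a script found 2 matches of TCCGNGGA and 1 of TTANTAA. They are shown because RPN4 is the regulator of the other members.
RPN4 TCCGNGGA, chrIV:417133-417160, minus strand: aataacaagtTCCGTGGAactcaaagaa
RPN4 TCCNCGGA, the reverse complement, chrIV:417090-417117, minus strand: tacgaaccttTCCACGGAtaatcacgtg
RPN4 TTANTAA, chrIV:417066-417092, minus strand: gtgatcgctaTTACTAAtagccgttta

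Over all 5999 regions of 600 bases, searched on both strands, 3.53% held TCCGNGGA and 31.0% held TTANTAA, so the TTANTAA match is common.

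Values are RPM as deposited, that is reads scaled to a library total of 1000000. All 31 genes passed the filter of 3 RPM in 3 libraries and were among the 5278 genes tested with limma on log2(RPM + 1), with p adjusted over all 5278 genes by Benjamini-Hochberg. RPM are shares of the tags of a library, so the RPM of a gene can also rise where other tags fall. The RNA is from whole cultures, so a change in the number of expressing cells and in RNA per cell cannot be told apart. The study's methods give a minimum depth but none per library; taking each library's smallest increment as 1 read gives 6237952 to 107579363 reads per library. BMH2 was at most 0.291 RPM in bmh2∆ and 197 to 505 RPM in bmh1∆, as labelled. BMH1 was 4048 to 5391 RPM in bmh2∆ and 536 to 4170 RPM in bmh1∆, with the highest bmh1∆ value in B0, so B0 lies within the bmh2∆ range. Whether the BMH1 tag lies in the deleted stretch was not tested, and BMH1 therefore checks no label. The a-factor gene MFA1 was at 1779 RPM or more and the alpha-factor gene MF(ALPHA)1 at 3.50 RPM or less in all 12 libraries. The bmh1∆ libraries form 2 sets by their column names, which give lanes but no run or date: GTCACG and TGCACT (0 mM) and GGATAT and CTATAG (50 mM) from lane 1, named by index and given in this order below, and B0 and B50 from lanes 6 and 7, named by letter. All bmh2∆ libraries are lettered (C, D and E, lanes 5 and 6). B0 was at or above the sum of the 7 other lettered libraries, in units of the smallest step, in 6053 of 6053 genes, and GTCACG was at or above the sum of the 3 other lane 1 libraries in 6052 of 6053. Their column names also end differently, so each may hold reads of other libraries. For comparisons that use bmh1∆ at 0 mM, medians over the 31 genes are also given without them, as is the RPN4 response in bmh1∆. Fold changes of other single genes and of parts of the complex in bmh1∆ include both. Without both, TGCACT is the only bmh1∆ library at 0 mM.

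In bmh2∆, potassium starvation went with a higher summed RNA level of the proteasome genes, although no single gene passed the test. Summed over the 31 genes, RNA was 8950 RPM in C0, 8614 RPM in D0 and 8829 RPM in E0, against 6756 RPM in C50, 5865 RPM in D50 and 6565 RPM in E50. The starved libraries lie above the others with no overlap. All 50 mM libraries of bmh2∆ are from lane 5, while D0 and E0 are from lane 6, so KCl and lane are largely tied here. Of the 31 genes, 29 (93.5%) had a log2 fold change above 0, against 53.3% of all genes tested. The median log2 fold change was 0.52 over the 31 genes and 0.05 over all genes. The parts of the complex had medians of 0.55 for the 7 alpha ring genes, 0.58 for the 7 beta ring genes, 0.49 for the 8 base genes and 0.51 for the 8 lid genes.

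No single member passed the test. Of the 31, 0 had an adjusted p under 0.05 in limma, where 5.53% of all genes passed, and 2 had an unadjusted p under 0.05 (19.2% of all genes). No overlap between the 3 starved and the 3 other libraries was seen for 10 of the 31 genes (32.3%), all higher at 0 mM, against 20.2% of all genes, and 0 were lower without overlap, against 20.5% of all genes. Within lane 5, the lane that holds bmh2∆ libraries of both conditions, C0 was above all of C50, D50 and E50 for 26 genes (83.9%; 41.5% of all genes) and below all of them for RPN8 alone (32.5% of all genes), and its log2 difference from their mean was above 0 for 30 genes (96.8%, against 55.6% of all genes). C0 is a single library, so this has no test.

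Among the lid genes, RPN9 encodes a scaffold subunit and had the smallest p of the 31. RPN9 was at 147 RPM in C0, 104 RPM in D0 and 167 RPM in E0, against 79.0 RPM in C50, 72.6 RPM in D50 and 74.8 RPM in E50. The lowest starved library was above the highest of the others. Its log2 fold change was 0.85 ± 0.33 (3 libraries each, SE from the fit of all 12 libraries), with an adjusted p of 0.174 in limma. With a term for the set (lane 1 against lettered libraries, a split read from the names) the same log2 fold change had an SE of 0.22 and an adjusted p of 0.0189, a fit in which 20.1% of all genes passed and 1 of the 31 did. RPN12, whose product joins the lid last, was at 127 RPM in C0, 147 RPM in D0 and 99.1 RPM in E0, against 63.1 RPM in C50, 70.0 RPM in D50 and 95.3 RPM in E50. These groups do not overlap either, by a narrow margin between E0 and E50 (log2 fold change 0.70, limma adjusted p = 0.262). RPN11, the deubiquitinase of the lid, was at 99.7 RPM in C0, 76.5 RPM in D0 and 91.6 RPM in E0, against 84.9 RPM in C50, 42.7 RPM in D50 and 48.0 RPM in E50. C50 lies within the range of the starved libraries here (log2 fold change 0.66, limma adjusted p = 0.381).

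In the core, PRE8 and SCL1 of the alpha ring and PRE1 of the beta ring had the smallest p. PRE8 was at 131 RPM in C0, 94.1 RPM in D0 and 176 RPM in E0, against 110 RPM in C50, 56.1 RPM in D50 and 68.0 RPM in E50. D0 was below C50, so the groups overlap although the log2 fold change was 0.78 ± 0.33 (SE, limma adjusted p = 0.217). SCL1 was at 313 RPM in C0, 316 RPM in D0 and 264 RPM in E0, against 179 RPM in C50, 192 RPM in D50 and 239 RPM in E50. PRE1 was at 179.9 RPM in C0, 144 RPM in D0 and 156 RPM in E0, against 121 RPM in C50, 113 RPM in D50 and 88.5 RPM in E50. Neither SCL1 nor PRE1 shows overlap between the conditions, with log2 fold changes of 0.55 for SCL1 (adjusted p = 0.366) and 0.58 for PRE1 (adjusted p = 0.301) in limma. PRE7 of the beta ring and PRE10 of the alpha ring had means of 312 ± 113 and 262 ± 74.2 RPM at 0 mM, against 197 ± 96.0 and 178 ± 38.1 RPM at 50 mM (SD, n = 3), and their groups overlap. PRE3, which carries the caspase-like active site, was at 691 ± 343 RPM at 0 mM and 363 ± 125 RPM at 50 mM, and its large spread left a log2 fold change of 0.85 with an adjusted p of 0.491 in limma.

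In the base, RPT4 and RPN2 stood first. RPT4, an ATPase, was at 723 RPM in C0, 1202 RPM in D0 and 654 RPM in E0, against 449 RPM in C50, 508 RPM in D50 and 618 RPM in E50. RPN2, encoding the large scaffold that binds the receptor Rpn13, was at 547 RPM in C0, 476 RPM in D0 and 637 RPM in E0, against 443 RPM in C50, 331 RPM in D50 and 379 RPM in E50. Both had no overlap, with log2 fold changes of 0.67 (RPT4, adjusted p = 0.415) and 0.52 (RPN2, adjusted p = 0.454) in limma. The genes below 0 were PRE2, the chymotrypsin-like subunit, at 367 ± 52.2 RPM at 0 mM and 375 ± 60.2 RPM at 50 mM, and RPN8, the partner of Rpn11, at 423 ± 109 RPM at 0 mM and 499 ± 44.7 RPM at 50 mM (SD, n = 3 each).

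The remaining genes without overlap in bmh2∆ were PUP2, PRE6, RPT2 and RPN3. PUP2, an alpha ring gene, was at 744 RPM in C0, 718 RPM in D0 and 598 RPM in E0, against 545 RPM in C50, 469 RPM in D50 and 492 RPM in E50 (log2 fold change 0.45, limma adjusted p = 0.461). RPT2, encoding the ATPase that opens the gate of the core, was at 143 RPM in C0, 117 RPM in D0 and 99.99 RPM in E0, against 66.0 RPM in C50, 74.1 RPM in D50 and 92.0 RPM in E50 (log2 fold change 0.62, limma adjusted p = 0.689). PRE6 had a log2 fold change of 0.71 and RPN3 of 0.34. RPT2 and PRE6 also differ between the sets of bmh1∆, and the SE pooled over all 12 libraries was 0.62 for RPT2 and 0.73 for PRE6. In the other genes, PRE4, PRE5, PRE9, PUP1, PUP3, RPN1, RPN5, RPN6, RPN7, RPN13, RPT3, RPT5 and RPT6, the log2 fold change ran between 0.05 (PUP1) and 0.67 (PRE5) and the conditions overlap.

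**Figure D1:**
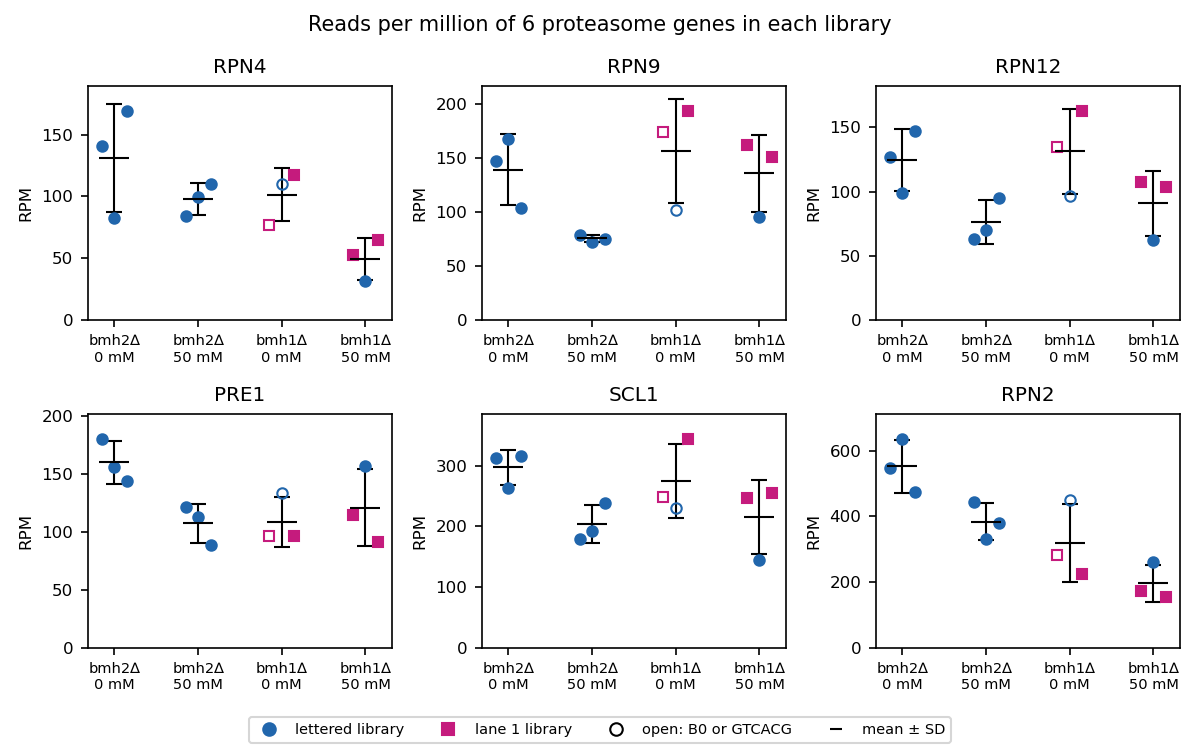
RPM (linear axis from 0) of RPN4, RPN9, RPN12, PRE1, SCL1 and RPN2 in each library, by strain and KCl; circles are lettered libraries, squares lane 1 libraries, open symbols B0 and GTCACG, and bars the mean ± SD of 3 libraries. RPN9 at 72.6 to 79.0 RPM in bmh2∆ at 50 mM KCl is the tightest group, below all 3 starved bmh2∆ libraries.

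The genes with PACE and those without it were also set side by side in bmh2∆. Of the 26 tested genes with a match, 25 had a log2 fold change above 0, with a median of 0.53. Of the 5 without a match, 4 were above 0, with a median of 0.06: RPN4 at 0.36, PRE5 at 0.67, RPN13 at 0.06, PUP1 at 0.05 and RPN8 at -0.26. Genes outside the list that hold the same letters in the window numbered 46, of which 43 were tested, 37 (86.0%) were above 0 and the median was 0.37, against 53.2% above 0 and a median of 0.04 for the tested genes without a match. Of these 43, 2 passed the test, both higher, a count near the share of 5.53% of all genes. These are descriptions of groups of unequal size, and the regions can belong to divergent pairs of genes.

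**Figure D2:**
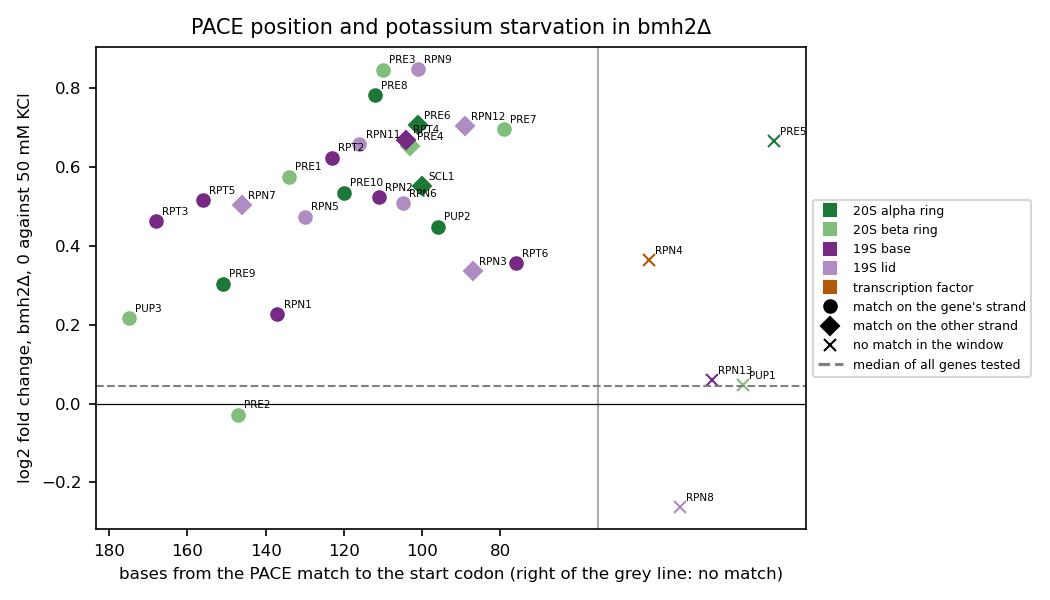
Distance in bases from the PACE match to the start codon (horizontal axis, matches of 76 to 175 bases) against the log2 fold change in bmh2∆ at 0 against 50 mM KCl (vertical axis) for the 31 genes, coloured by part of the proteasome; circles are matches on the strand of the gene, diamonds on the other strand, and crosses right of the grey line are the 5 genes without a match, spread only for legibility. Among genes with a match all but PRE2 lie above 0, and the dashed line is the median of all genes tested, 0.05.

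In bmh1∆ the same comparison gave RPN4 as the member with the smallest p, and a median log2 fold change of 0.30 over the 31 genes. RPN4 was at 110 RPM in B0 and 77.2 and 117 RPM in lane 1, against 31.1 RPM in B50 and 52.9 and 64.4 RPM in lane 1. The 3 starved libraries lie above the 3 others with no overlap. The log2 fold change was 1.06 ± 0.36 (SE from the fit of all 12 libraries, fold 2.09), with a limma adjusted p of 0.223. With the set term the limma adjusted p was 0.0565, in a fit where 8.72% of all genes passed and 0 of the 31 did. Without B0 and GTCACG the log2 fold change was 1.29, where the starved arm is TGCACT alone. Within lane 1, TGCACT was 1.998 times the mean of GGATAT and CTATAG, so RPN4 was higher at 0 mM there too. In bmh2∆ RPN4 was at 141 RPM in C0, 169 RPM in D0 and 82.8 RPM in E0, against 84.0 RPM in C50, 99.7 RPM in D50 and 110 RPM in E50. E0 was below all libraries of bmh2∆ at 50 mM, and the log2 fold change of 0.36 had an adjusted p of 0.683 in limma.

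Over the 31 genes, 0 passed the limma test in bmh1∆, where 0.966% of all genes passed, and 1 (RPN4) had an unadjusted p under 0.05 (11.7% of all genes). The log2 fold change was above 0 for 24 genes (77.4%, against 60.7% of all genes), with a median of 0.30 against 0.14 for all genes. Without B0 and GTCACG, which leaves TGCACT alone at 0 mM, 20 genes were above 0 and the median was 0.54, against 0.17 for all genes. Under median-of-ratios scaling, which moved the median of all genes to -0.03, 17 genes were above 0 and their median was 0.12. The summed level was 7464 RPM in B0 and 7692 and 8991 RPM in lane 1, against 6276 RPM in B50 and 6722 and 7670 RPM in lane 1. GTCACG exceeded CTATAG by little and B0 was below it, so the groups overlap. No overlap was seen for RPN4 and RPN5, which is 6.45% of the 31 genes, against 9.44% of all genes, and none was lower without overlap (3.16% of all genes).

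Members of the 19S particle followed RPN4 in the order of p. RPN5, a lid scaffold gene, was at 509.9 RPM in B0 and 597 and 628 RPM in lane 1, against 209 RPM in B50 and 499.9 and 455 RPM in lane 1 (log2 fold change 0.67, limma adjusted p = 0.597). RPN2 was at 452 RPM in B0 and 283 and 223 RPM in lane 1, against 261 RPM in B50 and 172 and 156 RPM in lane 1. RPN2 overlaps only through B50, which is above TGCACT (log2 fold change 0.67, limma adjusted p = 0.470). Within lane 1 GTCACG and TGCACT were above the 50 mM libraries, and in the lettered set B0 was above B50. B0 may hold reads of bmh2∆ libraries and GTCACG reads of other lane 1 libraries, which was not tested. RPT4 was at 673 RPM in B0 and 548 and 949 RPM in lane 1, against 288 RPM in B50 and 377 and 712 RPM in lane 1. CTATAG stands above 2 of the starved libraries, and the log2 fold change of 0.73 had an adjusted p of 0.543 in limma. By part of the complex, the median was 0.14 for the alpha ring and 0.09 for the beta ring, against 0.41 for the base and 0.36 for the lid. The genes below 0 were PRE1, PRE3, PRE5, PRE8, PUP1, RPN11 and RPT6. Within lane 1, TGCACT was above both 50 mM libraries for 20 genes (64.5%, against 42.3% of all genes) and below both for PRE5, PUP3 and RPN1 (9.68%, against 35.4% of all genes), with 24 genes (77.4%, against 53% of all genes) above the mean of both.

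**Figure D3:**
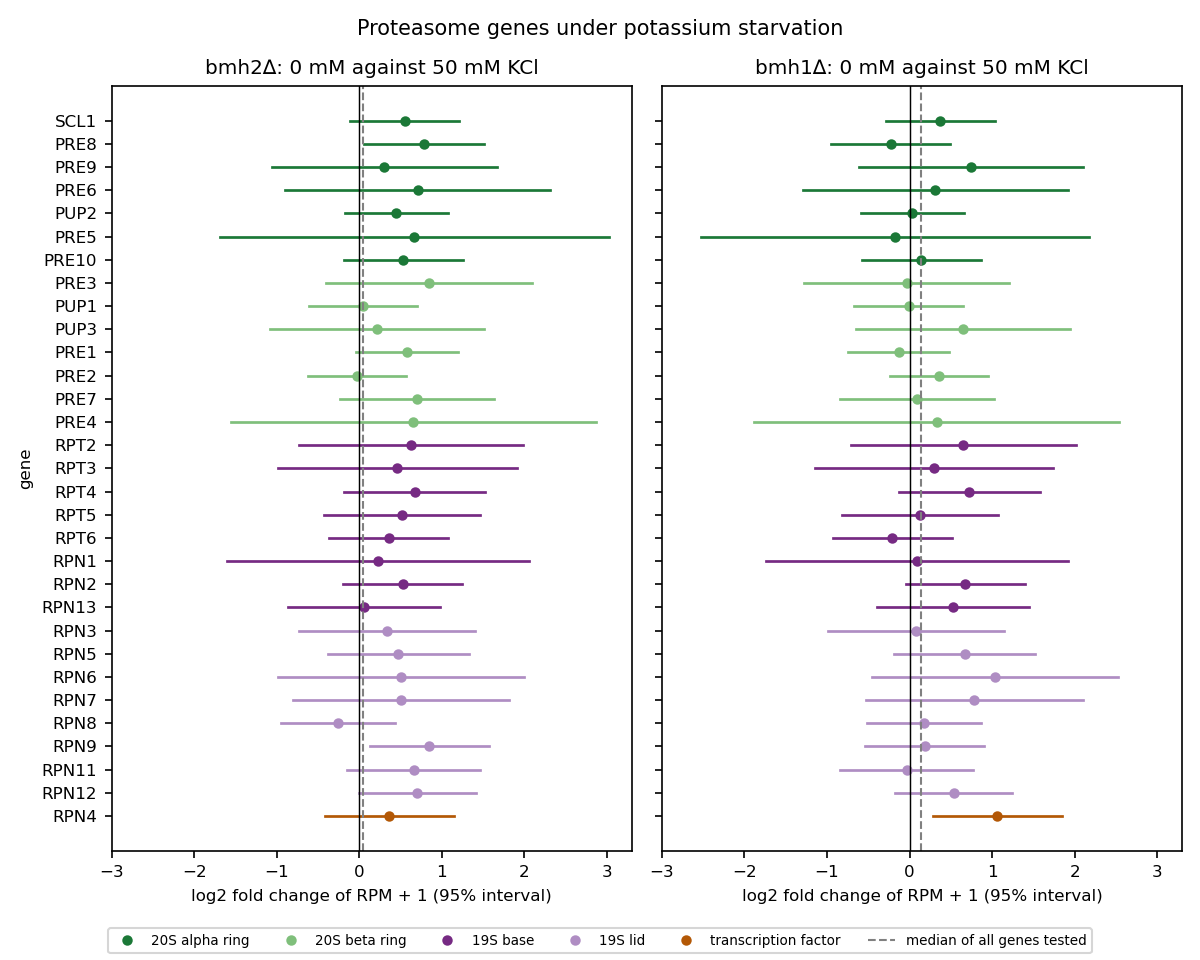
Log2 fold change of RPM + 1 at 0 against 50 mM KCl with its 95% interval from limma for the 31 genes, bmh2∆ on the left and bmh1∆ on the right, coloured by part of the proteasome. In bmh2∆ 29 points lie right of 0 and in bmh1∆ 24 do, most intervals include 0, and the dashed lines are the medians of all genes tested, 0.05 and 0.14.

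The difference between the responses of bmh2∆ and bmh1∆ was tested as an interaction. It was above 0 for 19 of the 31 genes (61.3%, against 42.4% of all genes), with a median of 0.17, where a positive value is a larger response in bmh2∆. The median over all genes was -0.12. Without B0 and GTCACG, with TGCACT alone for bmh1∆ at 0 mM, the median over the 31 genes was -0.03. The sign of this median therefore depended on the libraries used. The median was -0.04 without B0, -0.0024 without CTATAG and -0.23 in the lettered libraries alone, where bmh1∆ is B0 and B50. None of the 31 passed in limma (0% of all genes passed), and 0 had an unadjusted p under 0.05 (3.20% of all genes). The smallest p belonged to PRE8, with a difference of 1.01 and a 95% interval of -0.01 to 2.04. For RPN4 the difference was -0.70 (95% interval -1.80 to 0.41). These intervals are wide, and the responses are not shown to be alike.

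At 50 mM KCl the strains were compared without starvation. In limma 0 of the 31 genes passed, as did 0.0568% of all genes, and 9 had an unadjusted p under 0.05 (16.6% of all genes). The 31 genes were spread over both sides of 0, with 12 (38.7%) higher in bmh2∆ against 49.3% of all genes, and a median of -0.14, against -0.01 for all genes. With the set term 18 genes (58.1%, against 57.3% of all genes) were higher and the median was 0.31 (0.14 for all genes), and without CTATAG the median was 0.01, so its direction was not stable. RPN4 was 97.9 ± 13.1 RPM in bmh2∆ and 49.4 ± 16.9 RPM in bmh1∆ (SD, n = 3), with all bmh2∆ libraries at or above 84.0 RPM and all bmh1∆ libraries at or below 64.4 RPM. Its log2 fold change was 1.02 ± 0.36 (SE, adjusted p = 0.217 in limma). In the lettered libraries alone it was 1.62 with an adjusted p of 0.0350 in limma, where 14.6% of all genes passed, but bmh1∆ is then B50 alone, assumed to vary like the other libraries. PRE9 and RPN6 also passed there, both higher in bmh2∆, at 1.16 (adjusted p = 0.0478) and 1.44 (adjusted p = 0.0393).

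RPN2, RPN13, PUP3 and RPN8 were likewise higher in bmh2∆ at 50 mM without overlap. With RPN4 that is 5 of 31 (16.1%, against 10.7% of all genes), while PRE8 and RPN9 were lower in bmh2∆ without overlap (6.45%, against 9.28% of all genes). RPN2 was at 443 RPM in C50, 331 RPM in D50 and 379 RPM in E50, against 261 RPM in B50 and 172 and 156 RPM in lane 1 (log2 fold change 0.99, limma adjusted p = 0.210). RPN13, encoding the ubiquitin receptor docked on Rpn2, was at 195 RPM in C50, 215 RPM in D50 and 268 RPM in E50, against 169 RPM in B50 and 76.0 and 65.4 RPM in lane 1 (log2 fold change 1.24, limma adjusted p = 0.211). PUP3, a beta ring gene without an active site, was at 192 RPM in C50, 185 RPM in D50 and 229 RPM in E50, against 103 RPM in B50 and 58.7 and 34.8 RPM in lane 1 (log2 fold change 1.74, limma adjusted p = 0.214). In RPN2, RPN13 and PUP3 B50 lay nearer to bmh2∆ than the lane 1 libraries did, whereas in RPN4 B50 was the farthest, at 31.1 RPM.

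The set and the strain are tied together in this comparison, because no bmh2∆ library is from lane 1. Within bmh1∆ at 50 mM the sets differed widely. PRE4, of the beta ring, was at 20.9 RPM in C50, 32.2 RPM in D50 and 23.1 RPM in E50 of bmh2∆, and in bmh1∆ at 231 and 236 RPM in lane 1 and 14.9 RPM in B50. PRE5, of the alpha ring, was at 276 and 187 RPM in lane 1 and at 14.7 RPM in B50. RPN1, encoding the scaffold that receives ubiquitin carriers, was at 484 and 386 RPM in lane 1 and at 46.8 RPM in B50. PRE6, of the alpha ring, went the other way, with 71.2 and 61.2 RPM in lane 1 and 462 RPM in B50. Of the 31 genes, 9 (29.0%) differed more than 4-fold between the lane 1 mean and B50, against 23.8% of all genes, and these libraries have the same strain and medium.

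The last CATG of the coding sequence and the 17 bases after it are shown for these 4 genes, with the CATG in capitals, because such tags are the read-out; whether the counted tag is this one was not tested.
PRE4, chrVI:249100-249120, minus strand: CATGaaatgggacttcgccaa
PRE5, chrXIII:901915-901935, plus strand: CATGgggctctcgttagccgg
RPN1, chrVIII:161817-161837, minus strand: CATGgcgaaagagcagaacta
PRE6, chrXV:255544-255564, plus strand: CATGtggtgttgtcattttct

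Each of these 4 sequences has 1 copy in the genome. That CATG lies 55 bases from the coding end in PRE4, 499 bases in PRE5, 108 bases in RPN1 and 558 bases in PRE6. Across the 31 genes the distance had a Spearman rho of -0.32 with the log2 difference of lane 1 and B50, and of -0.33 across 4870 genes, given as a description over genes that share these libraries.

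For 17 of the 31 genes the bmh2∆ mean at 50 mM lay between the 2 bmh1∆ sets on the log2 scale, so the direction of the strain difference depended on which of them was used. The bmh2∆ mean was above both sets for PRE2, PUP3, RPN13, RPN2, RPN4, RPN8 and RPT4, and below both for PRE10, PRE5, PRE7, PRE8, RPN11, RPN9 and RPT6. RPT4 and PRE5 are near ties: lane 1 minus bmh2∆ was -0.006 for RPT4, and B50 minus bmh2∆ was 0.05 for PRE5. On the RPM means both orders turn, with RPT4 at 545 in lane 1 against 525 in bmh2∆, and PRE5 at 14.7 in B50 against 15.0 in bmh2∆. Without B50, 11 of the 31 genes passed in limma (25.4% of all genes did), 4 higher and 7 lower in bmh2∆, but strain and lane 1 cannot then be told apart.

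**Figure D4:**
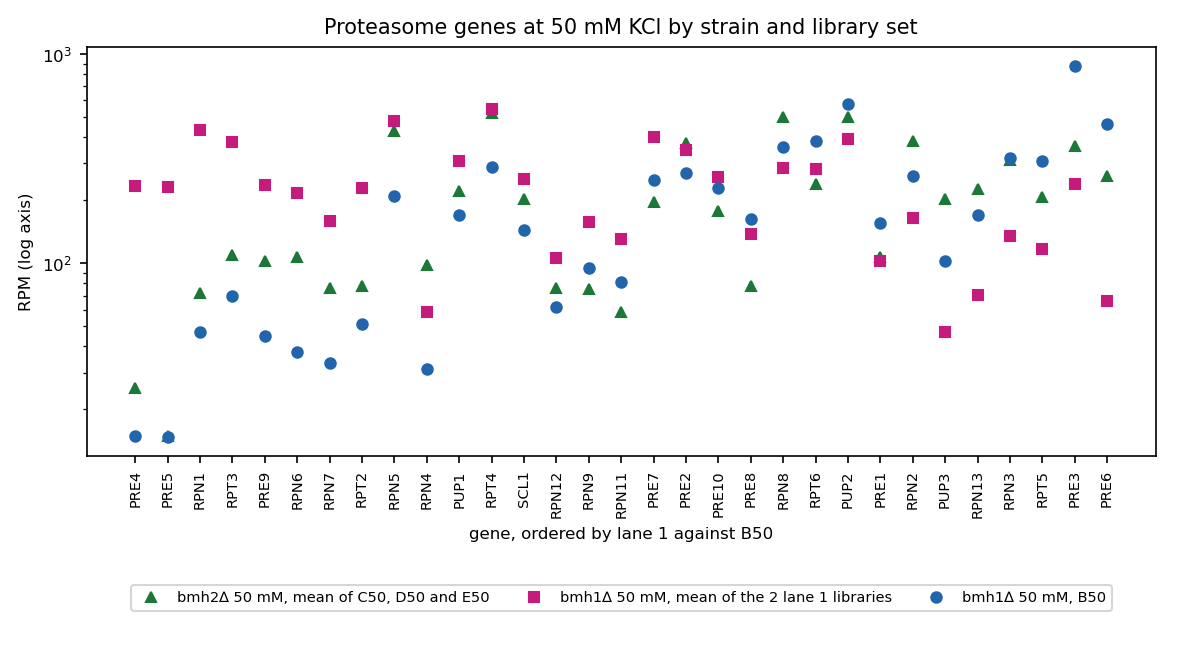
RPM on a log axis at 50 mM KCl for the 31 genes, ordered from left to right by lane 1 against B50; triangles are the mean of the 3 bmh2∆ libraries, squares the mean of the 2 lane 1 bmh1∆ libraries and circles the bmh1∆ library B50. PRE4 and PRE5 at the left have lane 1 means of 233 and 231 RPM against 14.9 and 14.7 RPM in B50, and PRE6 at the right has 66.2 RPM against 462 RPM.

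At 0 mM KCl 0 of the 31 genes passed between the strains in limma (0.0189% of all genes passed), with 3 of 31 at an unadjusted p under 0.05 (11.5% of all genes). Higher in bmh2∆ without overlap were PRE1, PRE6, PUP2, RPN2 and RPN3 (16.1%, against 6.57% of all genes), and 0 were lower without overlap (11.8% of all genes). RPN2 was at 547 RPM in C0, 476 RPM in D0 and 637 RPM in E0, against 452 RPM in B0 and 283 and 223 RPM in lane 1 (log2 fold change 0.84, limma adjusted p = 0.395). RPN3, a lid scaffold gene, was at 379 RPM in C0, 423 RPM in D0 and 373 RPM in E0, against 351 RPM in B0 and 149 and 115 RPM in lane 1 (log2 fold change 1.10, limma adjusted p = 0.395). In both genes B0 is the nearest to bmh2∆. B0 was at or above the sum of the 7 other lettered libraries in 6053 of 6053 genes, and all of those but B50 are bmh2∆. Whether B0 holds their reads was not tested, so B0 may not be an independent bmh1∆ library in this comparison. Over the 31 genes 16 (51.6%, against 41.9% of all genes) were higher in bmh2∆ with a median of 0.04, against -0.15 for all genes. Without B0 and GTCACG, with TGCACT as the only bmh1∆ library, 11 were higher with a median of -0.22, against -0.19 for all genes. Median-of-ratios scaling put 21 genes higher in bmh2∆, with a median of 0.21 against 0.01 for all genes. With the set term 26 genes (83.9%, against 53% of all genes) were higher in bmh2∆, with a median of 0.32 against 0.03 for all genes, and in the lettered libraries alone 29 were, with B0 as the bmh1∆ library. Without B0 the median was -0.05 and without C0 -0.09.

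Around the proteasome, 43 genes of assembly, associated factors, ubiquitin handling and activation of RPN4 were followed, of which 42 were tested and UBI4 fell below the filter. In bmh2∆ under starvation 1 of 10 assembly genes was lower, 1 of 19 ubiquitin genes was higher, and 0 of 9 associated genes and 0 of 4 activators of RPN4 passed. That is 2 of 42, near the share of 5.53% of all genes. POC4, encoding a chaperone of the alpha ring, fell to 9.59 RPM in C0, 12.5 RPM in D0 and 13.9 RPM in E0, against 31.2 RPM in C50, 35.0 RPM in D50 and 38.7 RPM in E50. That is a log2 fold change of -1.48 ± 0.29 (SE, adjusted p = 0.0175 in limma), and in bmh1∆ the value was 0.13 (adjusted p = 0.931). The difference between the strains did not pass (adjusted p = 0.993). The POC4 call was lost without C50, D50, E50 or C0, with adjusted p up to 0.0904. UBR2, the ubiquitin ligase that acts on Rpn4, rose to 50.8 RPM in C0, 16.8 RPM in D0 and 20.1 RPM in E0, against 8.67 RPM in C50, 7.40 RPM in D50 and 8.79 RPM in E50 (log2 fold change 1.54 ± 0.39, SE, limma adjusted p = 0.0466). C0 is far above the other starved libraries, and without C0 the log2 fold change was 1.06 with an adjusted p of 0.170; UBR2 passed in 13 of 26 alternatives, and leaving out any 1 library other than B0 or B50 ended the call. All 19 ubiquitin genes had log2 fold changes above 0 in bmh2∆ with a median of 0.63, against 53.3% and 0.05 for all genes. One of them, UBC5, was at 2.11 RPM or less in every bmh2∆ library. UBC5 passed the filter of 3 RPM only through bmh1∆ libraries, so its sign in bmh2∆ is near the floor. The other lists had 6 of 10 assembly genes (median 0.09), 7 of 9 associated genes (0.22) and 4 of 4 activators (0.40) above 0. Over the 42 genes, 36 (85.7%) were above 0, with a median of 0.39. In bmh1∆ 0 of the 42 passed in limma and 4 had an unadjusted p under 0.05, against 0.966% and 11.7% of all genes, and the median was 0.21, against 0.14 for all genes. None of the 42 passed in the other 3 comparisons, where 1 (interaction), 6 (50 mM) and 9 (0 mM) had an unadjusted p under 0.05, against 3.2%, 16.6% and 11.5% of all genes.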

How the data were processed

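Per the labels and the study's methods, the authors counted SAGE tags per gene, and the deposited values are RPM, with each of the 12 columns summing to 1000000 over 6053 genes. Not given in the sources used here: aligner, genome build. Columns were assigned to groups by the names in the labels. The values are whole multiples of 1 step per library (tolerance 0.01), but reads were not recovered and no count test was run. The filter was 3 RPM in 3 or more libraries, and genes passing it were tested on log2(RPM + 1) with limma 3.58.1 (trend and robust) in R 4.3.3. The fit held 4 group means over all 12 libraries and 5 contrasts, with a threshold of 0.05 on the Benjamini-Hochberg adjusted p. Fold changes are on the log2(RPM + 1) scale, which understates low genes. By rule, library values are given for RPN4 and for up to 10 members with the smallest p in each comparison. They are also given for genes of the pathway lists that passed. Genes singled out after their values were seen were PRE3, PRE2, RPN8, PRE4, PRE5, RPN1 and PRE6. PUP2 and RPT2 were also given by library in bmh2∆, because their conditions did not overlap. The members and lists were chosen with earlier results of these data known. Alternatives covered the pseudocount, the filter, scaling, the samples fitted, lane terms, a set term (lane 1 against the lettered libraries), and leaving out libraries; the set term and the lettered libraries alone were added after seeing the data. Motifs were searched with Python 3.11.15 in the R64 reference, and figures were drawn with matplotlib 3.10.9.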

Additional observations from a re-analysis of the deposited data

How the results depend on the processing

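Alternatives comprised 23 planned settings and 3 chosen after seeing the data; the 2 count tests planned (edgeR and DESeq2) were not run because the values are RPM. For starvation in bmh2∆, 0 of 31 members passed, and 1 passed when only the groups compared were fitted (RPN9, adjusted p = 0.0251; 24.7% of all genes passed), with a set term for lane 1 against the lettered libraries (RPN9, 0.0189; 20.1%), with the lettered libraries alone (RPN9, 0.0254; 24.3%) and with the set term without B0 and GTCACG (RPN9, 0.0190; 24.2%), all in limma. With a lane term 1 passed (PRE5, log2 fold change 1.71 against 0.67, adjusted p = 0.0418; 6.04% of all genes), where the starved arm is C0 alone against the lane 5 libraries. In each case 1 of 31 is under the share of all genes. With the culture letter as a replicate block 1 passed (RPN9, adjusted p = 0.0316; 17.9% of all genes); same-letter libraries deviated together by r = 0.07, 0.31 and -0.32 over 4157 genes, so the letters were not taken as a pairing, and the block could not be fitted for the strain comparisons. For the strains at 50 mM, 3 passed with the lettered libraries alone (14.6% of all genes), 2 with the set term without B0 and GTCACG (16.4%), and 0 to 11 on leaving out 1 library at a time, 11 without B50 (25.4%). In the other 3 comparisons 0 passed under every alternative run. The median of the members lay between 0.46 and 0.60 in bmh2∆ and between 0.11 and 0.54 in bmh1∆ over 26 alternatives. RPN9 in bmh2∆ ranged over 0.70 to 1.05, and adjusted p for POC4 over 0.0015 to 0.0904. Depth per library is not stated, so no counting interval is given.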
